A study of Mus musculus with 12 samples.

Results

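Voluntary wheel running was compared with inactivity in the triceps brachii, a muscle of the upper forelimb, of wild-type mice. The members of the comparison were the genes with a mean of at least 10 normalized reads over 3 active wild-type mice (AW) and 3 inactive wild-type mice (IW). These were 7248 of the 10187 genes in the table, measured in 6 of the 12 mice of the study. The other 6 mice had reduced myostatin, 3 inactive (IM) and 3 active (AM), and entered the model to estimate the spread between mice.

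All of the mice were male C57/BL6. AW and IW mice had the normal myostatin genotype, and IM and AM mice had floxed myostatin genes that tamoxifen depleted. Every mouse, controls included, ate chow with 0.025% (w/w) tamoxifen for 6 weeks in all between 4 and 6 months of age. At 6 months the active mice moved from shared cages to individual cages with running wheels for 12 weeks. Effects of running and of living alone cannot be told apart, since both came with the wheel cage. Whether the wild-type mice carried the Cre transgene was not given in the sources used here, and the distance run by each mouse was not analysed here.

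Skeletal muscle fibres are slow or fast according to the myosin they contain. Slow fibres and the more oxidative fast fibres burn fat and carbohydrate in mitochondria, whose respiratory chain is built from proteins of both the nuclear and the mitochondrial genome. Endurance exercise is known to raise mitochondrial content and to shift fast fibres from the glycolytic towards the oxidative type.

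The data were polyadenylated RNA reads counted per gene and scaled by the authors. The deposited values summed to 927958 to 1037232 normalized reads per wild-type mouse. Estimated depth was 9024431 to 11694492 reads per mouse, so that 3 reads, the floor used here, corresponded to 0.238 to 0.313 normalized reads, and this covers counting error only. Depth did not separate AW from IW mice (exact permutation test, two-sided, p = 0.9, where the smallest p that 3 against 3 mice allow is 0.1). The muscle identity of the libraries was clear from Acta1, the skeletal muscle actin, at 27352 to 35113 normalized reads, and from Ckm, the muscle creatine kinase, at 19247 to 24753. The 13 genes of the mitochondrial genome were counted apart from the rest.

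Mice of the same group differed most in slow-fibre genes. The summed level of 11 slow-fibre genes was 1329, 84.5 and 294.4 normalized reads in IW mice 1, 2 and 3, against 142.3, 1578 and 1773 in AW mice 1, 2 and 3. AW mouse 1 was thus below IW mice 1 and 3 in slow-fibre content, and AW mice 2 and 3 were above every IW mouse. Values without AW mouse 1 are therefore given beside genes whose call they moved.

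Few single genes passed the threshold. At an FDR-adjusted P-value under 0.05, 2 of 7248 genes (0.0276%) passed, and both were higher in AW mice. Leaving out AW mouse 1 raised the count to 208 genes, of which 132 (1.82%) were higher and 76 (1.05%) lower in active mice. Without AW mouse 2, AW mouse 3, IW mouse 1, IW mouse 2 or IW mouse 3 the counts were 1, 0, 4, 0 and 0, and with the 6 wild-type mice alone in the model no gene passed. At an unadjusted P-value below 0.05, 1071 genes (14.8%) passed, 554 higher (7.64%) and 517 lower (7.13%), and 74 genes (1.02%) had an adjusted P-value under 0.1. The median log2(fold change) over all genes was -0.01, with a median absolute change of 0.1 and a median standard error of 0.1.

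**Figure D1:**
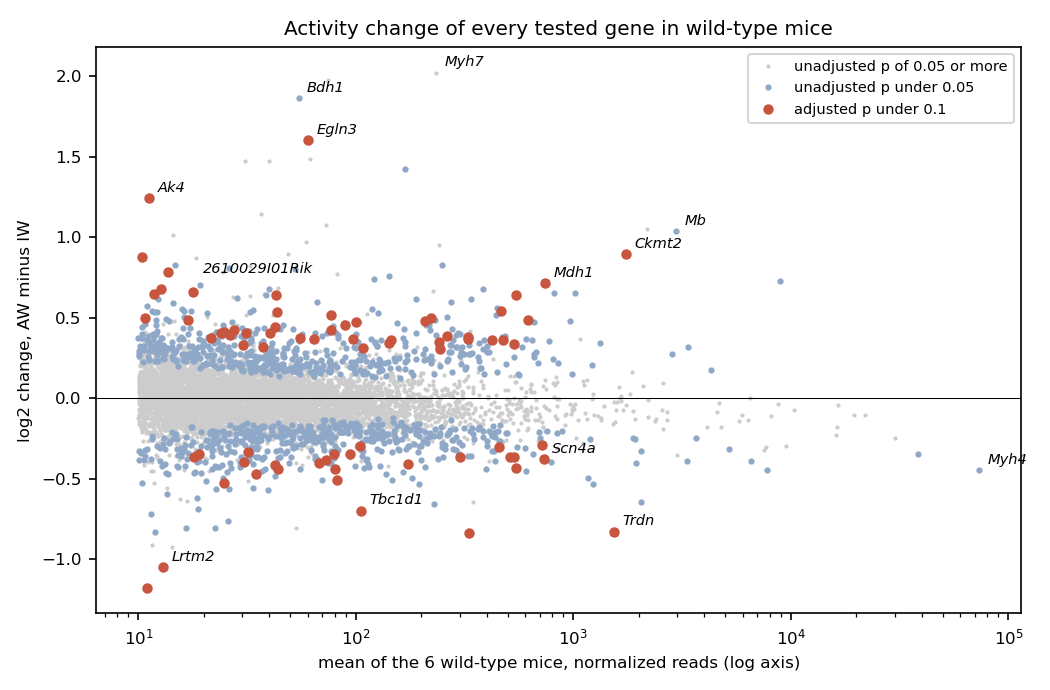
Change between active and inactive wild-type mice for the 7248 genes tested, with the mean level on the horizontal log axis and log2(fold change), AW minus IW, on the vertical axis, and with the 74 genes at an adjusted P-value under 0.1 in red. The 2 genes past an adjusted P-value of 0.05, Egln3 and 2610029I01Rik, lie at 1.60 and 0.66.

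Promoters are shown for Egln3, which rose, and for 2 of the energy genes below, Ndufs6 with a motif match and Ckmt2 with none. The sequences are from RefSeq, build GRCm38.p6, and give the 250 bases before the transcription start, 5′ to 3′ on the gene's strand. They lie at chr12:54203875-54204124, chr13:73328483-73328732 and chr13:91876886-91877135, each on the minus strand. Capitals mark ACGTG, the hypoxia response core, in Egln3 and a match to the nuclear respiratory factor 1 motif in Ndufs6, which is GCGC, then A and any base, then GCGC. Both strands were searched for these, for AAGGTCA (estrogen-related receptor), for CCGGAAG (ETS factors) and for the MEF2 motif, which is CTA, 4 bases of any kind and TAG, and the Ckmt2 window held no match to any of them. The windows of the respiratory chain genes Ndufb10, Atp5j2 and Ndufc1, not printed, held none either, and that of Atp5f1 held ACGTG.
Egln3: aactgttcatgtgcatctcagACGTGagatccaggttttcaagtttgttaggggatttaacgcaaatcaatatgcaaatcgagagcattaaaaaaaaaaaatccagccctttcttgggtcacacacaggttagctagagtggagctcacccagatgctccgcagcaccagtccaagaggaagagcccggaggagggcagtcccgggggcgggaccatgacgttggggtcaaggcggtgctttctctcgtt
Ndufs6: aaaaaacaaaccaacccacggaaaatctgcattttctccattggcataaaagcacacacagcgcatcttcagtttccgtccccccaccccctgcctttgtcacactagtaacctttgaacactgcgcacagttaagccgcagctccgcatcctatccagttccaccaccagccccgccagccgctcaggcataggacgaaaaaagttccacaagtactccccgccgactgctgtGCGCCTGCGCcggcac
Ckmt2: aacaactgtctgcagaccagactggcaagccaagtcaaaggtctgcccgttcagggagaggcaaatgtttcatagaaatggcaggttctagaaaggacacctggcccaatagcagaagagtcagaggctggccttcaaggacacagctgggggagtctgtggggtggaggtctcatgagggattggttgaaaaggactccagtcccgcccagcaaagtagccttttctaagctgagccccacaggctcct

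A match is a description of letters and not evidence of binding. The nuclear respiratory factor 1 motif was in 17.7% of the 62 oxidative phosphorylation promoters found, in 10.1% of the 5839 promoters of tested genes and in 3.86% of all 27025 promoters of the table. The ACGTG core was in 22.6%, 23.5% and 16.6% of the same 3 sets, CCGGAAG in 16.1%, 15.2% and 7.05%, AAGGTCA in 6.45%, 2.55% and 4.05%, and the MEF2 motif in 1.61%, 2.83% and 3.23%.

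Egln3, a prolyl hydroxylase that marks hypoxia-inducible factor for degradation, rose with running. It measured 35.7, 21.1 and 31.4 normalized reads in IW mice and 67.3, 101.6 and 103.9 in AW mice. The groups did not overlap, and AW mouse 1 was the lowest of the active mice. The means were 29.4 ± 7.49 (SD, n = 3) and 90.9 ± 20.5 (SD, n = 3), a 3.09-fold difference with a log2(fold change) of 1.60 (SE 0.22, limma adjusted P-value 0.0265). Egln3 lies on chromosome 12 from 55279968 to 55304847 of the mm9 genome.

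2610029I01Rik, listed in RefSeq as Tstd3, also rose. It measured 14.3, 13.7 and 12.6 normalized reads in IW mice and 20.5, 22.9 and 22.5 in AW mice. Mice within each group lay close together and the groups did not overlap. The difference was 1.62-fold, with a log2(fold change) of 0.66 (SE 0.08, limma adjusted P-value 0.019). It lies on chromosome 4 from 21684529 to 21694359 of mm9. Without AW mouse 1 both genes had an adjusted P-value of 0.0127. With each wild-type mouse left out in turn the adjusted P-value ranged from 0.0127 to 0.224 for Egln3 and from 0.0127 to 0.198 for 2610029I01Rik. Neither gene passed without AW mouse 2, AW mouse 3, IW mouse 2 or IW mouse 3.

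**Figure D2:**
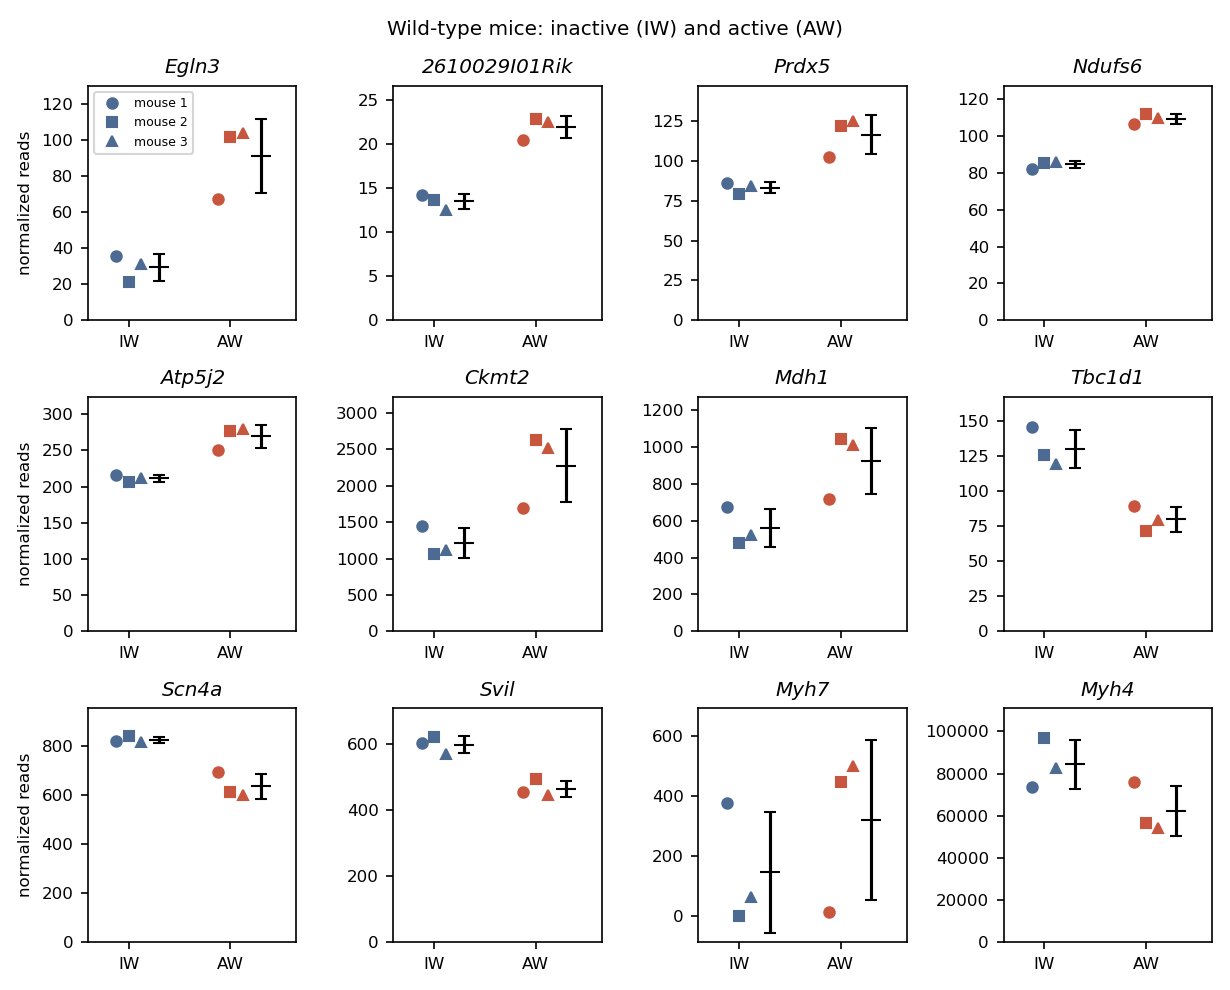
Normalized reads in each wild-type mouse for 12 genes, inactive (IW) and active (AW), where marker shape gives the mouse number and the bar gives the group mean ± SD of 3 mice. Egln3 and 2610029I01Rik do not overlap between groups, whereas Myh7 overlaps and spreads from 1.29 to 498.2.

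Nuclear genes of oxidative phosphorylation all had higher means in active mice, although none passed the adjusted threshold. All 75 genes tested, of 80 listed, had a higher mean in AW than in IW mice, against 47.3% of all genes. Of them, 68 were higher at an unadjusted P-value below 0.05 (7.64% of all genes were), and in 65 the AW and IW mice did not overlap (9.13% of all genes were higher without overlap). Their median log2(fold change) was 0.31, against -0.01 over all genes, and 17 had an adjusted P-value under 0.1, where 0.635% of all genes were higher at that level. Without AW mouse 1, 42 of the 75 were higher past the adjusted threshold of 0.05, where 1.82% of all genes were.

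The list was higher in every active mouse. The median deviation of the list from the IW mean, on the log2 scale, was 0.08, -0.08 and 0.01 in the IW mice and 0.18, 0.32 and 0.37 in the AW mice. AW mouse 1, which had fewer slow-fibre transcripts than IW mice 1 and 3, was above all 3 IW mice in 66 of the 75 genes, and in 27.4% of all genes. Since these are bulk samples, more of these nuclear transcripts per fibre and more fibres of an oxidative type cannot be told apart.

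Ndufs6, a subunit of complex I, measured 82.1, 85.4 and 85.9 normalized reads in IW mice and 106.2, 111.5 and 109.7 in AW mice. Every AW mouse exceeded every IW mouse, which was also a condition of a rule that picked the genes of this paragraph. Its log2(fold change) was 0.37 (SE 0.07, limma adjusted P-value 0.056). Atp5j2, a subunit of the membrane part of ATP synthase, measured 215.7, 206.6 and 211.2 in IW mice and 250.8, 276.8 and 279.7 in AW mice. The groups were separate, with a log2(fold change) of 0.35 (SE 0.06, limma adjusted P-value 0.056). Ndufb10 and Ndufc1 of complex I and Atp5f1 of ATP synthase were higher by 0.39, 0.31 and 0.36 on the log2 scale, with adjusted P-values of 0.056, 0.056 and 0.0568. Without AW mouse 1 these 5 genes passed, with adjusted P-values of 0.0284 for Ndufs6, 0.0194 for Atp5j2, 0.0204 for Ndufb10, 0.0256 for Ndufc1 and 0.0256 for Atp5f1. With another wild-type mouse left out their adjusted P-values reached 0.276, or 0.297 for Atp5f1.

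The higher means were spread over all 5 complexes, although no gene of them passed the adjusted threshold with all mice in the model. Complex I had 35 genes tested with a median log2(fold change) of 0.26. Of these, 30 were higher at an unadjusted P-value below 0.05, where 7.64% of all genes were, a share that holds for each complex. Complex II, which also belongs to the TCA cycle, had 4 genes with a median of 0.3, and all 4 were higher at that level. Complex III had 10 genes with a median of 0.29 and 9 higher, complex IV 12 genes with a median of 0.34 and 12 higher, and ATP synthase 14 genes with a median of 0.32 and 13 higher. The gene with the smallest P-value was Ndufs6 in complex I, Sdhd (log2(fold change) 0.32) in complex II, Uqcrh (0.31) in complex III, Cox7a2 (0.35) in complex IV and Atp5j2 in ATP synthase. Sdhd, Uqcrh and Cox7a2 passed without AW mouse 1, at adjusted P-values of 0.0479, 0.0357 and 0.0256. At the other end, Cycs, the cytochrome c carrier, differed by 0.08, Ndufb4 by 0.11 and Ndufa12 by 0.06.

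The 13 genes encoded by the mitochondrial genome were centred near no difference. Their levels were uneven, with COX1 at 42.4 to 62.7 normalized reads over the wild-type mice and ND1 at 1242 to 1880. How fully reads of these genes were counted was not tested, which limits a comparison with the nuclear genes. The median log2(fold change) of the 13 genes was 0.01, or -0.10 without AW mouse 1. At an unadjusted P-value below 0.05, 2 were higher (7.64% of all genes) and 0 lower (7.13% of all genes). ND5, a complex I subunit, measured 369.7, 434.1 and 337.6 normalized reads in IW mice and 607.2, 544.6 and 504.8 in AW mice, a log2(fold change) of 0.54 (SE 0.11, limma adjusted P-value 0.0568, and 0.0476 without AW mouse 1). ND5 was above the IW range in every AW mouse. COX2, a subunit of complex IV, was lower in AW mice by 0.21 on the log2 scale, with overlapping groups and an adjusted P-value of 0.425. By mouse, the median deviation of the 13 genes was -0.12, 0.19 and -0.06 in IW mice and 0.28, 0 and -0.15 in AW mice, so AW mouse 1 was the highest of the 6.

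Transcripts for the proteins of the mitochondrial ribosome, which translates the messages of the mitochondrial genome, mostly had higher means, although none passed the adjusted threshold. Of 73 tested, 70 had a higher mean in AW mice (47.3% of all genes did), 38 were higher at an unadjusted P-value below 0.05 (7.64% of all genes) and 42 were higher without overlap (9.13% of all genes). Their median log2(fold change) was 0.18. The median deviation by mouse was 0, 0.01 and 0 in IW mice and 0.15, 0.17 and 0.19 in AW mice, with no AW mouse apart from the others. Mrps35 of the small subunit had the smallest P-value of the list, with a log2(fold change) of 0.49 and an adjusted P-value of 0.0935.

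**Figure D3:**
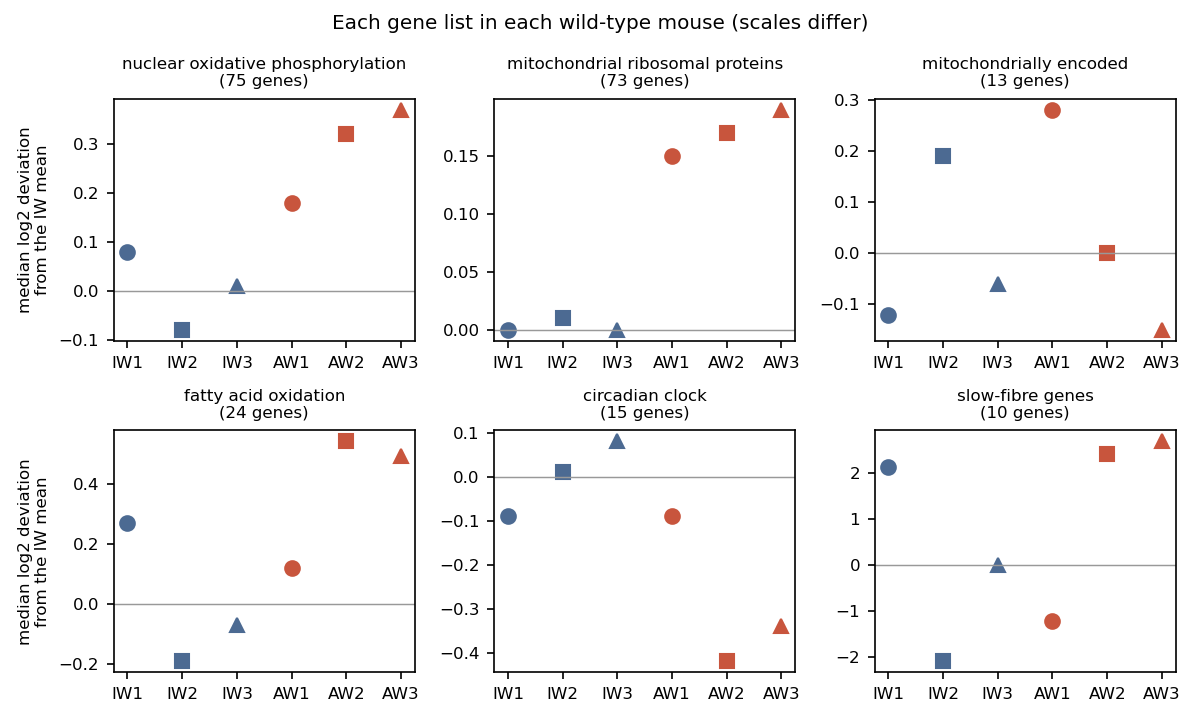
Median deviation of each gene list from the mean of the inactive wild-type mice, on the log2 scale, in each of the 6 wild-type mice. Oxidative phosphorylation and mitochondrial ribosome genes are higher in all 3 AW mice than in any IW mouse, whereas the slow-fibre genes of AW mouse 1 lie at -1.21 and those of AW mice 2 and 3 at 2.41 and 2.68.

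Ckmt2, the mitochondrial creatine kinase, which passes the phosphate of mitochondrial ATP to creatine, measured 1447, 1068 and 1123 normalized reads in IW mice and 1695, 2623 and 2514 in AW mice. The groups did not overlap, which was also a condition of a rule that picked this gene, with AW mouse 1 nearest to the IW mice. The difference was 1.88-fold, with a log2(fold change) of 0.89 (SE 0.17, limma adjusted P-value 0.0568). Without AW mouse 1 the adjusted P-value was 0.0127, and it reached 0.297 with another wild-type mouse left out. Slc25a4, the muscle ATP/ADP carrier of the inner membrane, was higher by 0.17 on the log2 scale with an adjusted P-value of 0.285. Prdx5, a peroxiredoxin that removes peroxides in mitochondria and other compartments, measured 85.9, 79.2 and 84.3 in IW mice and 102.2, 121.5 and 125.1 in AW mice. Its log2(fold change) was 0.47 (SE 0.08, limma adjusted P-value 0.056). The adjusted P-value was 0.0127 without AW mouse 1 and reached 0.276 with another wild-type mouse left out. Prdx5 was picked among genes whose groups did not overlap. Of the 13 genes of glucose uptake and creatine kinase, 3 were higher (7.64% of all genes) and 2 lower (7.13% of all genes) at an unadjusted P-value below 0.05, with a median of 0.06, or 0.11 without AW mouse 1.

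Genes of the TCA cycle and the malate-aspartate shuttle had higher means in AW mice, mainly through AW mice 2 and 3. With all mice in the model none passed the adjusted threshold. Of 14 TCA cycle genes, 8 were higher (7.64% of all genes were) and 0 lower at an unadjusted P-value below 0.05, with a median log2(fold change) of 0.18. Dlst, a subunit of the 2-oxoglutarate dehydrogenase complex, was higher by 0.32 with an adjusted P-value of 0.112, or 0.0348 without AW mouse 1. The median deviation of AW mouse 1 was 0.08 for the TCA cycle and 0.15 for the shuttle, below IW mouse 1 at 0.09 and 0.18, and 5 of 14 and 3 of 6 genes were higher without overlap, as were 9.13% of all genes. The shuttle carries reducing equivalents of the cytosol into mitochondria, and 5 of its 6 genes tested were higher at that level, with a median of 0.38. Mdh1, the cytosolic malate dehydrogenase, measured 673.4, 480.1 and 522.7 normalized reads in IW mice and 716.1, 1040 and 1010 in AW mice, with a log2(fold change) of 0.72 (SE 0.15, limma adjusted P-value 0.0675). The groups did not overlap, and AW mouse 1 lay close to IW mouse 1. Got1, the cytosolic aspartate aminotransferase, was higher by 0.64 (adjusted P-value 0.0826). Mdh1 and Got1 passed without AW mouse 1, at 0.0175 and 0.0256.

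Genes of fatty acid and ketone body oxidation mostly had higher means, mainly through AW mice 2 and 3. With all mice in the model none passed the adjusted threshold. Of 24 fatty acid oxidation genes, 16 were higher at an unadjusted P-value below 0.05 (7.64% of all genes) and 4 were higher without overlap (9.13% of all genes), and the median log2(fold change) was 0.39. The median deviation by mouse was 0.27, -0.19 and -0.07 in IW mice and 0.12, 0.54 and 0.49 in AW mice, so AW mouse 1 lay below IW mouse 1. Etfa, an electron carrier from fatty acid oxidation to the respiratory chain, had the smallest P-value, with a log2(fold change) of 0.49 and an adjusted P-value of 0.1, or 0.0175 without AW mouse 1. Among members with a lower mean in AW mice, Ucp3, an uncoupling protein, had the smallest P-value (log2(fold change) -0.18, adjusted P-value 0.852). Of 4 ketone body genes, 3 were higher at that level, with a median of 0.41. Bdh1, which oxidizes the ketone body 3-hydroxybutyrate, measured 43.3, 10.5 and 18.5 normalized reads in IW mice and 40.9, 118.0 and 95.5 in AW mice. AW mouse 1 matched IW mouse 1, the groups overlapped, and the log2(fold change) of 1.87 (SE 0.55) had a limma adjusted P-value of 0.139, and of 0.0496 without AW mouse 1.

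Regulators known to control these genes were measured too. Of 13 tested, 4 were higher (7.64% of all genes) and 0 lower at an unadjusted P-value below 0.05, with a median log2(fold change) of 0.19. Esrra, a nuclear receptor that drives respiratory chain genes, measured 118.9, 101.9 and 104.3 normalized reads in IW mice and 132.2, 136.8 and 143.0 in AW mice, with a log2(fold change) of 0.34 (SE 0.09, limma adjusted P-value 0.112). The groups did not overlap. Ppargc1a, the coactivator PGC-1α, was higher by 0.19 with an adjusted P-value of 0.551, and Tfam, which packages mitochondrial DNA, was lower by 0.08 with an adjusted P-value of 0.668.

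**Figure D4:**
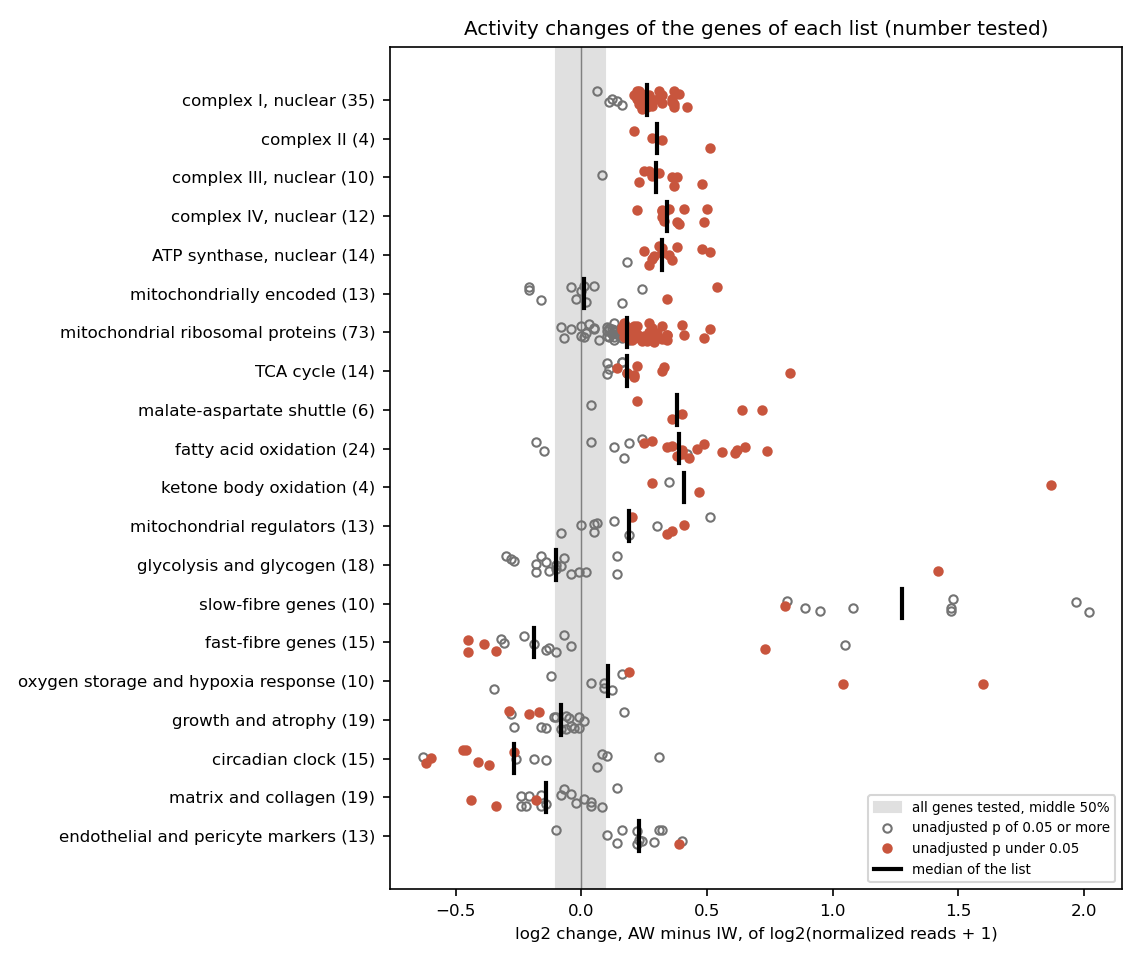
Distribution of log2(fold change), AW minus IW, for the genes of each list fixed for this comparison, with each gene as a point, filled where its unadjusted P-value was under 0.05, and the list median as a bar. The median of nuclear oxidative phosphorylation genes lies at 0.31 and that of mitochondrially encoded genes at 0.01, beside a median of -0.01 over all genes.

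Glycolysis and glycogen genes were counted in the same way. Of 18 tested, 4 had a higher mean in AW mice (47.3% of all genes did) and 14 a lower mean, and 1 was higher (7.64% of all genes) and 0 lower (7.13% of all genes) at an unadjusted P-value below 0.05, with a median log2(fold change) of -0.1, or -0.18 without AW mouse 1. By mouse the median deviation was -0.11, 0.08 and 0.02 in IW mice and 0.06, -0.16 and -0.21 in AW mice, so AW mouse 1 lay within the IW range. The gene that was higher was Ldhb, the lactate dehydrogenase subunit of oxidative muscle, at 147.3, 50.9 and 73.4 normalized reads in IW mice and 109.0, 324.4 and 306.5 in AW mice. The groups overlapped through AW mouse 1, and the log2(fold change) of 1.42 had an adjusted P-value of 0.197, which became 1.93 and 0.0473 without AW mouse 1.

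Slow-fibre genes overlapped between groups. Myh7, the slow myosin heavy chain, measured 375.5, 1.29 and 63.1 normalized reads in IW mice and 15.6, 446.8 and 498.2 in AW mice. The groups overlapped, and the log2(fold change) of 2.02 had a standard error of 1.95 (limma adjusted P-value 0.683). Of 10 slow-fibre genes tested, 1 (Casq2, the calcium-storing calsequestrin of slow muscle, adjusted P-value 0.254, and 0.0361 without AW mouse 1) was higher at the unadjusted level of 0.05 (7.64% of all genes), and none was higher without overlap (9.13% of all genes), although the median log2(fold change) was 1.27, or 2.55 without AW mouse 1.

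Fast myosins overlapped as well. Myh4, the myosin of the most glycolytic fast fibres, measured 73727, 96845 and 82555 normalized reads in IW mice and 75908, 56811 and 54013 in AW mice, a log2(fold change) of -0.45 (SE 0.18, adjusted P-value 0.268). Myh1, the myosin of fast fibres between these and the oxidative ones, measured 11089, 3920 and 6200 in IW mice and 8406, 11562 and 12563 in AW mice, a log2(fold change) of 0.73 (SE 0.32, adjusted P-value 0.313). Myh2, of the oxidative fast fibres, measured 2515, 627.2 and 967.6 in IW mice and 899.4, 4900 and 3102 in AW mice, with an adjusted P-value of 0.567. In all 3 myosins AW mouse 1 lay within the range of the IW mice, and IW mouse 1 was the IW mouse nearest to AW mice 2 and 3. Of 15 fast-fibre genes, 1 was higher (7.64% of all genes) and 4 lower (7.13% of all genes) at an unadjusted P-value below 0.05, with a median of -0.19.

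Egln3 was the only oxygen gene past the adjusted threshold. Mb, the oxygen-storing myoglobin, measured 2991, 1098 and 1825 normalized reads in IW mice and 2261, 4842 and 4750 in AW mice, with a log2(fold change) of 1.04 (SE 0.39, limma adjusted P-value 0.228). AW mouse 1 lay within the IW range. Of 10 oxygen and hypoxia genes tested, 3 were higher (7.64% of all genes) and 0 lower (7.13% of all genes) at an unadjusted P-value below 0.05, with a median of 0.11, or 0.22 without AW mouse 1. Egln1, the related prolyl hydroxylase, was higher by 0.19 with an adjusted P-value of 0.237, and Vegfa, the vascular growth factor, by 0.09.

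Among genes lower in active mice, none passed the adjusted threshold of 0.05, and 28 (0.386%) had an adjusted P-value under 0.1. Tbc1d1, a Rab GTPase-activating protein that restrains movement of the glucose transporter to the surface, measured 145.5, 125.5 and 119.5 normalized reads in IW mice and 89.2, 71.3 and 79.4 in AW mice. The groups did not overlap, which was also a condition of a rule that picked this gene. The log2(fold change) was -0.70 (SE 0.12, limma adjusted P-value 0.056). Without AW mouse 1 the adjusted P-value was 0.0183, and it reached 0.276 with another wild-type mouse left out. It lies on chromosome 5 from 64550690 to 64742725 of mm9.

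Among genes without overlap that averaged 50 or more normalized reads, the lower genes with the smallest P-values included 3 ion channels. None of the 3 passed the adjusted threshold with all mice in the model. Ion channels were not a list fixed for this comparison. Their share among all genes was not counted, so the 3 are described singly and not as a group. Scn4a, the sodium channel that carries the muscle action potential, measured 823.2, 840.7 and 815.4 normalized reads in IW mice and 694.2, 613.9 and 601.5 in AW mice, a log2(fold change) of -0.38 (SE 0.07, limma adjusted P-value 0.056). Kcnj12, an inward rectifier potassium channel, and Kcnq5, a voltage-gated potassium channel, were lower by 0.40 and 0.35 with adjusted P-values of 0.0589 and 0.0568. Svil, the actin-binding supervillin, was lower by 0.37 (adjusted P-value 0.056), Gbf1, a guanine nucleotide exchange factor of the Golgi, by 0.30 (adjusted P-value 0.0568) and Gstm1, a glutathione transferase, by 0.44 (adjusted P-value 0.0564). These 6 genes were picked among genes whose groups did not overlap, so their separation is not a result. Without AW mouse 1 each passed, with adjusted P-values of 0.0161 (Scn4a) to 0.0386 (Svil). With another wild-type mouse left out the adjusted P-values reached 0.276 for Scn4a and Svil and 0.3 for Kcnj12. Mylk4, a muscle kinase of the myosin light chain kinase family, was also separate between groups, with a log2(fold change) of -0.65 and an adjusted P-value of 0.112, or 0.0386 without AW mouse 1.

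A few other genes near the threshold were chosen after their values were seen. Ak4, a mitochondrial adenylate kinase, was higher in AW mice at 12.5, 21.2 and 15.2 normalized reads, against 6.29, 7.29 and 5.01 in IW mice, with an adjusted P-value of 0.056. Trdn, the triadin of the calcium release complex, measured 1896, 2109 and 1837 in IW mice and 815.0, 1531 and 1048 in AW mice, with an adjusted P-value of 0.0673. AW mouse 1 was the lowest of the 6 mice for Trdn. Srebf1, a regulator of lipid synthesis, was lower by 0.51 on the log2 scale, with an adjusted P-value of 0.0687.

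Growth and clock genes were counted next. Of 19 growth and atrophy genes, 0 were higher and 3 lower at an unadjusted P-value below 0.05 (7.13% of all genes were lower), the ubiquitin ligase gene Trim63, the transcription factor gene Mef2d and the kinase gene Mtor, with a median log2(fold change) of -0.08, or -0.15 without AW mouse 1. Mstn, which encodes myostatin, measured 79.7, 138.1 and 131.0 normalized reads in IW mice and 110.3, 90.1 and 80.8 in AW mice, with overlapping groups and an adjusted P-value of 0.618. Of 15 clock genes, 0 were higher (7.64% of all genes) and 7 lower (7.13% of all genes) at an unadjusted P-value below 0.05, with a median of -0.27, and in 4 the AW mice were lower without overlap, as in 8.4% of all genes. Hlf, a clock output transcription factor, measured 13.3, 16.7 and 19.4 in IW mice and 11.9, 9.75 and 9.76 in AW mice, with a log2(fold change) of -0.60 and an adjusted P-value of 0.112. The clock genes of AW mouse 1 deviated by a median of -0.09, inside the IW range of -0.09 to 0.08, and those of AW mice 2 and 3 by -0.42 and -0.34. The time of day of dissection was not given in the sources used here, and its part in these values was not tested.

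Of 11 immediate-early and stress genes tested, 2 were higher (7.64% of all genes) and 1 lower (7.13% of all genes) at an unadjusted P-value below 0.05. Hsph1, a heat shock protein, was higher by 0.35 (adjusted P-value 0.2) and Jun, an immediate-early transcription factor, lower by 0.32 (adjusted P-value 0.112), both without overlap between groups, as were 9.13% of all genes on the higher and 8.4% on the lower side.

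Markers of cells other than muscle fibres were examined last. Of 13 endothelial and pericyte genes tested, 1 was higher (7.64% of all genes) and 0 lower at an unadjusted P-value below 0.05, a share near that of all genes, with a median log2(fold change) of 0.23, or 0.45 without AW mouse 1. Their median deviation was 0.01, -0.18 and 0.19 in IW mice and -0.19, 0.32 and 0.56 in AW mice. The summed level of the 14 listed genes in the table was 483.0 to 641.8 normalized reads in IW mice and 488.4 to 804.3 in AW mice. The gene was Egfl7, an angiogenic factor secreted by endothelial cells, with an adjusted P-value of 0.267, or 0.0426 without AW mouse 1. Of 19 matrix genes, 0 were higher and 3 lower at that level (7.13% of all genes were lower), with a median of -0.14, or -0.06 without AW mouse 1, and Timp2, an inhibitor of matrix proteases, had the smallest adjusted P-value, 0.0826, or 0.0272 without AW mouse 1. Immune markers had 5 genes tested with a median of 0.15, or -0.04 without AW mouse 1. Of the macrophage genes among them, Lyz2, a lysozyme, was higher by 0.41 and Csf1r, a growth factor receptor, lower by 0.25 (adjusted P-values 0.285 and 0.54). Both were without overlap, as were 9.13% of all genes on the higher and 8.4% on the lower side. Alas2, the red cell enzyme of haem synthesis, was at 2.34 to 7.19 normalized reads in every mouse. Schwann cell genes had 2 tested, of which Pmp22, a protein of peripheral myelin, was lower by 0.47 with an adjusted P-value of 0.25. AW mouse 1 also had the lowest summed level of the 5 Schwann cell genes, 24.0 against 40.6 to 83.2 in the other mice. It was above all IW mice in 4 of the 5 immune genes tested, and in 27.4% of all genes. The part of these markers in the results above was not tested. Smooth muscle markers had 4 genes tested, with none past an unadjusted P-value of 0.05. Of 4 fibroblast and tendon genes, Thbs4, a matrix thrombospondin, was lower by 0.43 and Dpt, dermatopontin, higher by 0.16, with adjusted P-values of 0.303 and 0.712. Of 3 adipocyte genes, Fabp4, a fatty acid carrier of fat and capillaries, was higher by 0.53 (adjusted P-value 0.139, and 0.0386 without AW mouse 1), and Scd1, a fatty acid desaturase, differed by -0.01. The list of satellite cell and regenerating fibre markers had 2 genes tested. Chrna1, an acetylcholine receptor subunit, lay at 0.54 and Cdh15, a cadherin of muscle precursors, at -0.20 on the log2 scale (adjusted P-values 0.149 and 0.413).

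The active and inactive myostatin-reduced mice were separate animals, but the same model gave both comparisons 1 estimate of the spread per gene. Counts that pass in both are therefore not independent. Of the 1071 genes past an unadjusted P-value of 0.05 in wild-type mice, 984 (91.9%) differed in the same direction between AM and IM mice, against 70.2% of all genes. Of those 1071, 346 (32.3%) passed the adjusted threshold in the AM and IM mice in the same direction, where 5.34% of all genes were higher and 2.48% lower. The share was 275 of the 554 higher genes and 71 of the 517 lower genes. All 74 genes with an adjusted P-value under 0.1 went the same way, and 49 of them passed. The oxidative phosphorylation list had a median log2(fold change) of 0.42 in the myostatin-reduced mice, with 68 of 75 genes past the threshold.

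Egln3 had a log2(fold change) of 2.02 between AM and IM mice (limma adjusted P-value 0.00279), and 2610029I01Rik one of 0.55 (adjusted P-value 0.00811). Tbc1d1 differed by -0.06 there (adjusted P-value 0.788, unadjusted interaction P-value by limma 0.00195). 3425401B19Rik, a gene of unnamed function, was lower by 0.44 in AW mice (adjusted P-value 0.0568, and 0.0447 without AW mouse 1). Between AM and IM mice it differed by -0.06 as well (adjusted P-value 0.693). Inactive mice of the 2 genotypes already differed in level, with means of 70 (IM) and 130 (IW) normalized reads for Tbc1d1 and 484 and 625 for 3425401B19Rik. The interaction of activity and genotype, which tests the difference between the activity changes of the 2 genotypes, passed the adjusted threshold in 0 of 7248 genes by limma (0%). At the unadjusted threshold 295 genes passed, 152 (2.1%) with a larger and 143 (1.97%) with a smaller value in wild-type mice. No gene is therefore shown to respond differently in the 2 genotypes.

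**Figure D5:**
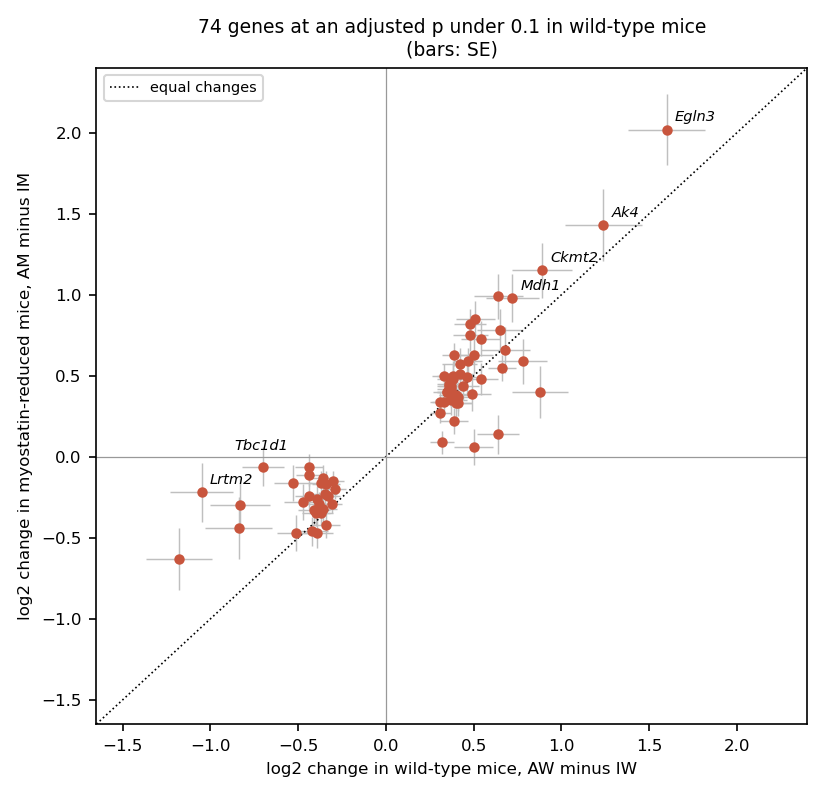
log2(fold change) between active and inactive mice in wild-type (horizontal axis, AW minus IW) and myostatin-reduced mice (vertical axis, AM minus IM) for the 74 genes at an adjusted P-value under 0.1 in wild-type mice, with bars of 1 standard error. All 74 have the same sign in both genotypes, and Tbc1d1 lies at -0.70 and -0.06.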

How the data were processed

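Polyadenylated RNA of triceps brachii was sequenced as single-end reads. The authors mapped the reads with CASAVA (version not given in the sources used here) to the mm9 genome, counted reads per gene in RefSeq exons and scaled them to an equal trimmed mean. Values as deposited are a signal, scaled reads per gene with no division by gene length. Within 0.0071 normalized reads, 90.1% to 91.7% of values under 5 and 55.6% to 63.8% of values between 20 and 50 were whole multiples of the value of 1 read, 0.0793 to 0.1044, so whole reads were not recovered for nearly all genes and no count test was run.

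Group differences were fitted by limma (version 3.58.1, R 4.3.3) to log2(value + 1), with a mean for each of the 4 groups over 12 mice, a trend in eBayes and Benjamini-Hochberg adjustment over 7248 genes. P-values are two-sided. The pseudocount makes fold changes of low genes too small. The labels name 12 mice, each a single sample, and shared replicate numbers do not mark shared animals, so no replicate block was used.

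Groups came from the sample titles. The members and gene lists were chosen with earlier results of these data known. Named genes were Mstn, the genes past the threshold, the 8 higher and 8 lower genes with the smallest P-values among separated genes averaging 50 or more, the best higher and lower member of each list and 13 fixed names. Other list members were named after their values were seen. Gene positions are from the mm9 annotation. Whether strand was used in counting was not given in the sources used here, and reads of near-identical or overlapping genes could be split. Alternatives were other scalings, pseudocounts, filters and models, and leaving out each wild-type mouse. The test was checked on simulated data. A few genes are not reported here.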

Additional observations from a re-analysis of the deposited data

How the results depend on the processing

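With the replicate number as a replicate block, 0 genes passed the adjusted threshold for AW against IW (1093 at an unadjusted P-value under 0.05). Mice sharing a number did not deviate together (r across genes -0.53, -0.44 and 0.15), so the numbers do not pair the mice. The count of 2 genes became 37 with a mean of at least 50 (19 higher, 18 lower, of 2559 tested), 4 with median of ratios scaling, 50 with the slow-fibre score as a covariate, 421 with sample weights, where AW mouse 1 had the lowest weight, 0.48, and 0 with the wild-type mice only (946 at an unadjusted P-value under 0.05). It stayed at 2 without a filter, without a trend, with a pseudocount of 0.5 or 5 and with a trimmed mean of M values scaling. Leaving out 1 wild-type mouse gave 0 to 208 genes (693 to 1505 at an unadjusted P-value under 0.05). The interaction gave 0 to 1 genes when 1 wild-type mouse was left out, with 1 only without IW mouse 3. No IM or AM mouse was left out, although the interaction rests on them too. Of 1121 values of named genes under the alternatives, 996 kept their direction and side of the threshold, 12 lost the call, 103 gained one and 10 changed sign. The sign changes were Ucp3 at 0.08 without AW mouse 1, Robo4 at 0.01 with sample weights, 0.02 without AW mouse 1 and 0.15 without IW mouse 3, Scd1 at 0.20 with the covariate, 0.23 without AW mouse 3 and 0.49 without IW mouse 2, Myh7 at -0.10 with the covariate and -0.01 without IW mouse 2, and Tnnc1 at -0.19 with the covariate. Over the wild-type mice left out in turn, the lowest values were -0.45 (Ucp3), -0.27 (Robo4) and -0.48 (Scd1), and the highest for Myh7 was 3.67. Their cause was not tested. Of 523 list medians, 509 stayed within the spread between mice and 14 moved. Depth limits genes near the floor of 3 reads, and 3 mice a group limit every P-value.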
